A study of Mus musculus with 39 samples.

Results

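The metabotropic glutamate receptors of the mouse brain were described here through 7 genes, Grm2, Grm3, Grm4, Grm5, Grm6, Grm7 and Grm8, chosen as the rows of the expression table that carry these symbols. Each had 1 probe set, so that 7 of 25429 probe sets were members, and all 7 were kept in every test. Expression was measured with Affymetrix Mouse Gene 2.0 ST arrays in punches of amygdala, cortex, hippocampus and hypothalamus from 5 control and 5 PianpKO mice, 39 samples in all, with the amygdala of control mouse 4 not analysed here. All mice were experimentally naive males. Control mice carried the floxed Pianp allele, obtained by crossing Pianptm1a(KOMP)Wtsi mice with the FLP line B6N.Cg-Tg(ACTFLPe)9205Dym/CjDswJ. PianpKO mice came from floxed mice bred to B6.C-Tg(CMV-cre)1Cgn/J, a line in which the CMV promoter drives Cre in all tissues, so that the knockout was constitutive and not limited to a region or cell type. Ages of single mice were not given in the labels. The study states only an age range shared by its transcriptomic and other experiments, so age could not be compared between the genotypes. The comparisons asked how the receptor transcripts differ between regions and whether loss of Pianp, which encodes a membrane protein of neurons, changes them.

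Metabotropic glutamate receptors are G protein-coupled receptors that bind the main excitatory transmitter of the brain and tune synapses more slowly than the ion channel receptors do. Group I, here Grm5, couples to Gq proteins and sits mostly postsynaptically. Group II (Grm2 and Grm3) and group III (Grm4, Grm6, Grm7 and Grm8) couple to Gi/o proteins, lower cyclic AMP and in many axon terminals reduce transmitter release, and Grm3 is also made by astrocytes.

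In the RefSeq annotation of GRCm38.p6, the genes lay on different chromosomes apart from Grm7 and Grm8. Grm2 spanned chr9:106644534-106656109, Grm3 chr5:9485236-9725352, Grm4 chr17:27422387-27513826 and Grm5 chr7:87583981-88135063. Grm6 spanned chr11:50850369-50866208, Grm7 chr6:110645349-111567230 and Grm8 chr6:27275121-28135146. Whole transcripts were measured, and the probe sets do not separate isoforms.

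Promoter sequence in the RefSeq table of this build was matched for 5 of the 7 genes (Grm2, Grm3, Grm6, Grm7 and Grm8). The 250 bases before the annotated start are shown for Grm2 and Grm3, the group II genes that were higher in cortex than in hypothalamus in both genotypes, and for the most upstream start of Grm8, which was lower in hippocampus than in cortex and amygdala. The Grm2 window is chr9:106656110-106656359, the Grm3 window chr5:9725353-9725602 and the Grm8 window chr6:28135147-28135396, all 3 on the minus strand and written 5′ to 3′. Capitals mark GGGCGG, the GC box, on either strand.
Grm2: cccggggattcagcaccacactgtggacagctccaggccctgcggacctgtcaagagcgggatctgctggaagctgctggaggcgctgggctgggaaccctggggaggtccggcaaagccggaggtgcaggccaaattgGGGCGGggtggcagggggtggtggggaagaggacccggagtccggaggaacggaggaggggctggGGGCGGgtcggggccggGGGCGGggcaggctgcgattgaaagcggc
Grm3: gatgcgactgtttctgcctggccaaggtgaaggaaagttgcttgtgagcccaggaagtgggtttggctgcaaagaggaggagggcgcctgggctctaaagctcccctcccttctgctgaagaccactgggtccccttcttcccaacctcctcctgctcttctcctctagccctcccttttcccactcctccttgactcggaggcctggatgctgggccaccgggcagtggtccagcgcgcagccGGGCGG
Grm8: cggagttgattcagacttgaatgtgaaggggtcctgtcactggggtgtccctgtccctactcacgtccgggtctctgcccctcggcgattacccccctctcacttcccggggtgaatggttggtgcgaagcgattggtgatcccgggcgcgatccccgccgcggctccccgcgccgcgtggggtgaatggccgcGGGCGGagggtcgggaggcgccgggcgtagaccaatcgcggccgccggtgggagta
The Grm2 window held 3 GC boxes and had a GC content of 71.2%, the Grm3 window held 1 with 62.4%, and the Grm8 window held 1 with 68.4%. Both strands were also searched for the E-box, spelled CANNTG. The same search was made for the core of the cyclic AMP response element (CRE), whose letters are TGACG. The TATA box was searched with its usual letters, TATAAA. Of these motifs only the GC box was found in the 3 windows, and no match says only that the letters are not in this stretch. Among 32851 promoters of the table, 32.7% held a GC box, 66.2% an E-box, 17.8% a CRE core and 12.4% a TATA box. The single Grm6 window held 0 GC boxes and 1 E-box, with a GC content of 47.6%.

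The labels were checked first. Pianp ran from 7.08 to 8.16 on the log2 scale in control samples and from 5.10 to 6.17 in PianpKO samples, without overlap. Among control means, 5 of 5 measured cortical layer markers were highest in cortex and 6 of 7 hypothalamic markers in hypothalamus. Hippocampus had the highest mean for 4 of 4 dentate granule cell markers but for only 3 of 5 hippocampal pyramidal neuron markers. The other 2 pyramidal markers were highest in amygdala, and only 2 of 4 amygdala markers were highest there. All 4 thalamus and 7 choroid plexus markers were highest in hippocampus, and 7 of 8 striatal projection neuron markers in hypothalamus. The hypothalamus samples of control mice 1 and 3 stood apart, with means of the 6 measured forebrain excitatory neuron markers of 5.96 and 7.23 against 7.56 to 8.01 in the other hypothalamus samples. In these bulk samples, fewer cells of a type and less RNA per cell cannot be told apart.

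Most of the receptors differed between regions. The test for any difference between the 4 regions (limma F test, mouse as a random block, adjusted p under 0.05 over all probe sets) called Grm2, Grm3, Grm4, Grm5 and Grm8, 5 of 7 members, in control mice and again in PianpKO mice, where 31.5% and 26.9% of all probe sets were called. Grm6 and Grm7 were not called in either genotype (adjusted p = 0.400 and 0.275 in control mice, 0.911 and 0.566 in PianpKO mice). Differences between the 8 groups of region and genotype took 90.3% of the sum of squares of Grm3, 80.1% of Grm2, 78.2% of Grm8, 70.7% of Grm5 and 59.4% of Grm4, but 18.2% of Grm7 and 13.8% of Grm6. With 8 groups among 39 samples, part of such a share arises without any true difference. The low shares of Grm7 and Grm6 are therefore not read as a regional or genotype part.

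**Figure D1:**
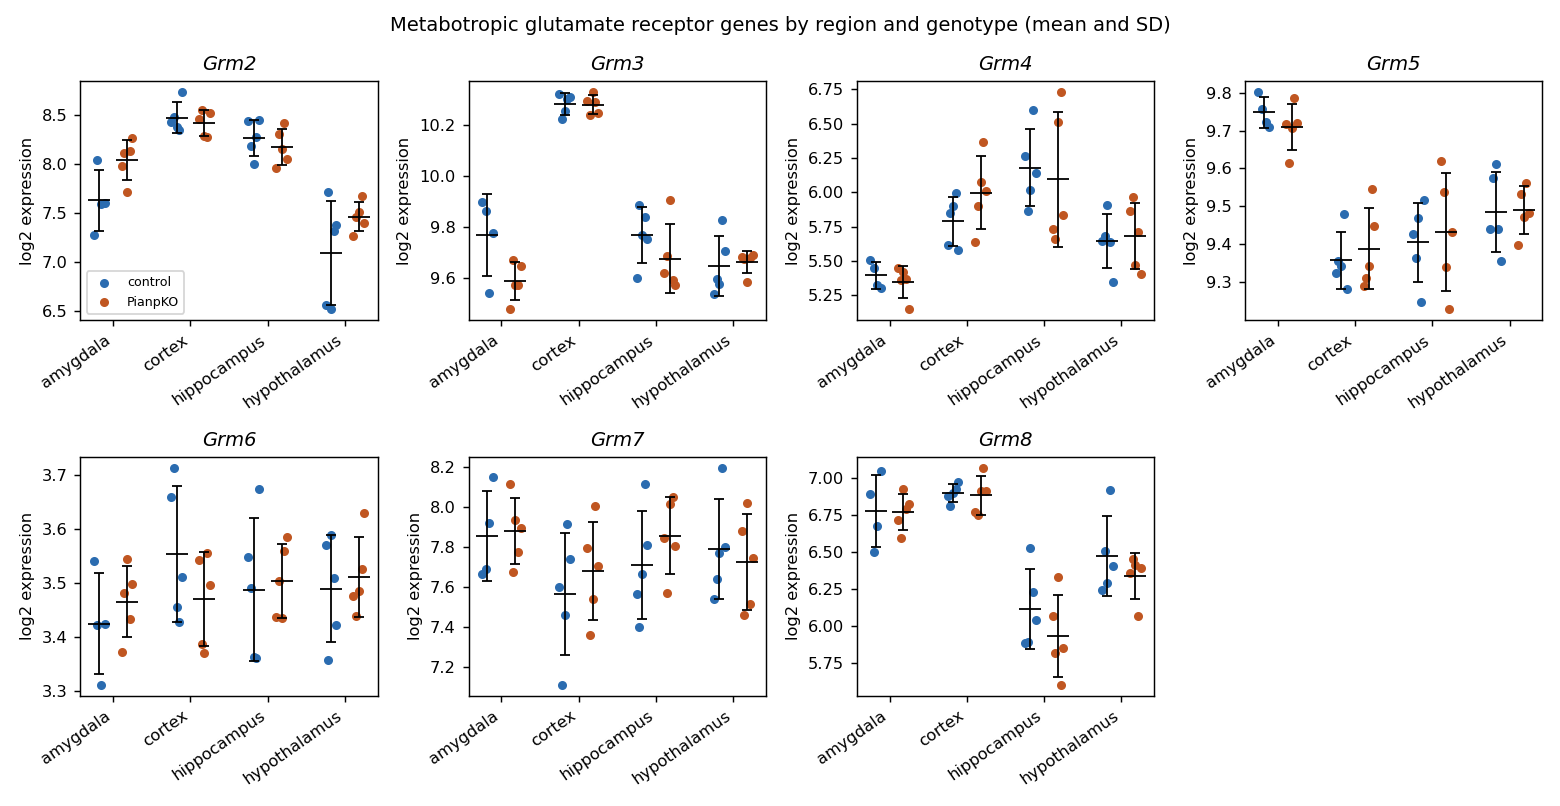
Log2 expression (y axis, a separate scale for each gene) of the 7 receptor genes in the 4 regions (x axis), with 1 point per sample, blue for control and orange for PianpKO mice, and black bars for the mean and SD. Grm3 lay at 10.22 or above in every cortex sample and at 9.91 or below in the other regions, whereas Grm6 stayed between 3.31 and 3.71 everywhere.

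Grm2, a group II receptor known mainly from excitatory axon terminals, was lowest in hypothalamus, and its means had the order cortex, hippocampus, amygdala, hypothalamus in both genotypes. In cortex it measured 8.43, 8.47, 8.38, 8.35 and 8.73 in the control mice and 8.46, 8.55, 8.29, 8.27 and 8.52 in the PianpKO mice. In hypothalamus it measured 6.55, 7.71, 6.52, 7.31 and 7.37 in the control mice and 7.26, 7.46, 7.51, 7.67 and 7.40 in the PianpKO mice. Cortex and hypothalamus did not overlap in either genotype, and the 2 lowest hypothalamus values were those of control mice 1 and 3. The difference of cortex minus hypothalamus was 1.38 (SE 0.15, 2.60-fold, limma adjusted p = 3.33e-09) in control mice and 0.96 (SE 0.15, 1.94-fold, adjusted p = 4.16e-06) in PianpKO mice, with the same direction in 5 of 5 mice of each genotype. Without the hypothalamus samples of control mice 1 and 3, an alternative chosen after seeing the data, the control difference was 1.03 (adjusted p = 3.74e-07).

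Hippocampus came next for Grm2. It measured 8.43, 8.18, 8.0, 8.28 and 8.44 in control mice and 7.96, 8.30, 8.15, 8.41 and 8.05 in PianpKO mice, overlapping with cortex. Cortex minus hippocampus was 0.21 (SE 0.15, 95% interval -0.09 to 0.50) in control mice and 0.24 (SE 0.15, interval -0.06 to 0.54) in PianpKO mice, and neither passed the test. Hippocampus exceeded hypothalamus by 1.17 (SE 0.15, adjusted p = 1.89e-07) in control mice and by 0.71 (SE 0.15, adjusted p = 0.000583) in PianpKO mice. Without the hypothalamus samples of control mice 1 and 3 the control difference was 0.82 (limma adjusted p = 3.30e-05). The amygdala held an intermediate level, 0.84 below cortex in control mice (SE 0.16, adjusted p = 0.000176) but with a smaller, uncalled difference in PianpKO mice (-0.38, SE 0.15). Amygdala minus hypothalamus was called in both genotypes (0.54, adjusted p = 0.0240, and 0.58, adjusted p = 0.0108). Neither call held throughout. The control one was lost without control replicate 1 or 3 and was 0.18 (adjusted p = 0.643) without both hypothalamus samples, and the PianpKO one was lost without PianpKO replicate 1, 2 or 5. Amygdala minus hippocampus, -0.64 in control mice (adjusted p = 0.00405), was lost without control replicate 1 (-0.48, adjusted p = 0.0636).

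Grm3, the other group II receptor, found in neurons and astrocytes, was higher in cortex than in each other region. Its cortex values were 10.32, 10.22, 10.26, 10.30 and 10.31 in control mice and 10.29, 10.24, 10.33, 10.29 and 10.25 in PianpKO mice, a mean of 10.28 ± 0.04 (SD, n = 5) in both. The amygdala gave 9.90, 9.87, 9.54 and 9.78 in 4 control mice and 9.48, 9.67, 9.57, 9.57 and 9.65 in PianpKO mice. Hippocampus ran from 9.57 to 9.91 and hypothalamus from 9.54 to 9.83 over both genotypes. The cortex samples were thus narrowly grouped and lay above every other sample. Cortex exceeded hypothalamus by 0.63 (SE 0.06, 1.55-fold, adjusted p = 4.14e-10) in control and 0.62 (SE 0.06, 1.53-fold, adjusted p = 8.04e-10) in PianpKO mice. It exceeded hippocampus by 0.51 and 0.60 (1.43-fold and 1.52-fold), and amygdala by 0.51 and 0.69 (1.42-fold and 1.61-fold). The 3 remaining pairs of regions were not called in either genotype, and none of the 6 cortex calls was lost under any alternative run, including leaving out each mouse. In control mice the mean of the 6 astrocyte markers measured was 8.48 ± 0.10 (SD, n = 5) in cortex and 8.81 to 8.98 in the other regions. That of the 6 forebrain excitatory neuron markers was 9.09 in cortex and 7.37 to 8.76 elsewhere. For the 5 cortical layer markers it was 9.03 in cortex and 7.61 to 8.25 elsewhere. The part of cell composition in the Grm3 level was not tested.

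Grm5, which signals through Gq and phospholipase C at postsynaptic sites, was highest in amygdala. It measured 9.80, 9.76, 9.72 and 9.71 there in control mice and 9.72, 9.62, 9.71, 9.79 and 9.72 in PianpKO mice. Cortex gave 9.32, 9.36, 9.34, 9.48 and 9.28 in control mice and 9.29, 9.31, 9.34, 9.55 and 9.45 in PianpKO mice. Amygdala and cortex did not overlap, although the step was small. Amygdala exceeded cortex by 0.39 (SE 0.07, 1.31-fold, adjusted p = 4.88e-05) in control mice and 0.32 (SE 0.06, 1.25-fold, adjusted p = 0.000214) in PianpKO mice. Hippocampus was lower than amygdala by 1.27-fold and 1.21-fold (adjusted p = 0.000281 and 0.00156). Hypothalamus was lower by 1.20-fold and 1.16-fold (adjusted p = 0.00845 and 0.0236), calls that were lost without control replicate 1 (adjusted p = 0.116) in control mice, and without replicate 1, 3 or 5 or with the mouse as a fixed term (adjusted p = 0.0924) in PianpKO mice. The 3 pairs among cortex, hippocampus and hypothalamus were not called in either genotype. Cortex minus hypothalamus came closest, at -0.13 (95% interval -0.25 to -0.00183, adjusted p = 0.140) in control mice, where 4 of 5 mice had this direction, and -0.10 (interval -0.23 to 0.0247, adjusted p = 0.306) in PianpKO mice, where 5 of 5 had it.

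Grm4, a group III receptor of axon terminals, had its highest mean in hippocampus and its lowest in amygdala in both genotypes. Hippocampus gave 6.26, 5.87, 6.02, 6.60 and 6.14 in control mice and 5.73, 5.66, 6.52, 6.73 and 5.83 in PianpKO mice. Amygdala gave 5.51, 5.45, 5.33 and 5.30 in control mice and 5.45, 5.36, 5.42, 5.37 and 5.15 in PianpKO mice. Each hippocampus value lay above each amygdala value of its genotype. Hippocampus exceeded amygdala by 0.77 (SE 0.16, 1.70-fold, adjusted p = 0.000743) in control mice and 0.75 (SE 0.15, 1.68-fold, adjusted p = 0.000513) in PianpKO mice. Cortex exceeded amygdala by 0.65 (SE 0.15, adjusted p = 0.00200) in PianpKO mice, while the control difference of 0.38 (SE 0.16) did not pass. Hippocampus exceeded hypothalamus in control mice by 0.53 (adjusted p = 0.0121), a call lost without control replicate 1, 4 or 5, and the PianpKO difference of 0.41 (adjusted p = 0.0740) did not pass. The ends of the order were not separated from their neighbours. Cortex minus hippocampus was -0.39 (95% interval -0.70 to -0.0830, adjusted p = 0.0750) in control mice and -0.0961 (interval -0.40 to 0.21, adjusted p = 0.787) in PianpKO mice. Amygdala minus hypothalamus was -0.23 (adjusted p = 0.458) and -0.33 (adjusted p = 0.236). The 2 highest PianpKO hippocampus values of Grm4, in mice 3 and 4, came with the 2 highest means of the 4 thalamus markers in that group, 9.08 and 9.39 against 8.01 to 8.69 in the other 3. Control hippocampus did not show this order. There the list measured 9.29, 8.97, 8.48, 8.72 and 8.92, so that the highest Grm4 value, in mouse 4, came with the second lowest mean and the lowest, in mouse 2, with the second highest. In the other regions of both genotypes the list ran from 6.01 to 7.16. The part of thalamic tissue in the Grm4 level of the hippocampus samples was not tested.

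Grm8, a group III receptor with high glutamate affinity, was lower in hippocampus than in cortex and amygdala. Cortex gave 6.88, 6.81, 6.90, 6.93 and 6.97 in control mice and 6.77, 6.75, 6.91, 7.07 and 6.91 in PianpKO mice. Hippocampus gave 5.88, 5.89, 6.52, 6.23 and 6.04 in control mice and 6.07, 5.82, 6.33, 5.60 and 5.85 in PianpKO mice. Every cortex value exceeded every hippocampus value. Amygdala, from 6.50 to 7.05 in control mice, overlapped with hippocampus there, but not in PianpKO mice. Cortex exceeded hippocampus by 0.78 (SE 0.12, 1.72-fold, adjusted p = 6.12e-06) in control mice and 0.95 (SE 0.12, 1.93-fold, adjusted p = 2.06e-07) in PianpKO mice, and amygdala exceeded it by 0.68 (adjusted p = 0.000181) and 0.83 (adjusted p = 2.50e-06). Cortex and amygdala overlapped, and amygdala minus cortex was not called (-0.11, 95% interval -0.36 to 0.15, in control mice and -0.11, interval -0.36 to 0.13, in PianpKO mice). Hypothalamus lay between, from 6.24 to 6.92 in control and from 6.07 to 6.46 in PianpKO mice, 0.42 below cortex in control mice (adjusted p = 0.00665) and 0.55 below it in PianpKO mice (adjusted p = 0.000606). Without the hypothalamus samples of control mice 1 and 3 the first of these was 0.28 (adjusted p = 0.168). Hypothalamus exceeded hippocampus by 1.28-fold in control mice (adjusted p = 0.0357), a call that did not hold when PianpKO mouse 5 or any control mouse but the third was left out, and by 1.32-fold in PianpKO mice (adjusted p = 0.0187), which was lost without PianpKO replicate 2 or 5. Amygdala exceeded hypothalamus by 0.43 in PianpKO mice (adjusted p = 0.0194, lost without PianpKO replicate 1, 4 or 5), and the control difference of 0.32 (adjusted p = 0.123) did not pass.

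The 2 remaining group III genes had no called difference among 6 pairs of regions in either genotype. Grm6, the receptor of retinal ON bipolar cells, had group means from 3.42 to 3.55, under the median of all probe sets on these arrays (4.62), and its 39 values spanned 3.31 to 3.71. No detection call accompanies the values, so that a low transcript level and the background of the array cannot be told apart for Grm6. Grm7, a receptor of the presynaptic active zone, had SDs of 0.17 to 0.30 within the groups, and its groups overlapped between all regions. Its control values in cortex were 7.60, 7.11, 7.46, 7.91 and 7.74, and in hippocampus 7.57, 7.40, 7.66, 8.11 and 7.81. In hypothalamus they were 7.54, 7.64, 7.77, 8.20 and 7.80. Control mouse 4 had the highest Grm7 value of its group in 3 of 3 regions, with a mean deviation of 0.38 from the group means. Its mean deviation was also above 0 for Grm4 (0.21), Grm8 (0.20), Grm3 (0.09) and Grm2 (0.04), and below 0 for Grm5 (-0.03) and Grm6 (-0.08). PianpKO mouse 2 had the lowest Grm7 value in 4 of 4 regions, at 7.68 in amygdala, 7.36 in cortex, 7.57 in hippocampus and 7.46 in hypothalamus, with a mean deviation of -0.27. The widest Grm7 difference between regions was amygdala minus cortex, at 0.32 (95% interval 0.0369 to 0.59, adjusted p = 0.147) in control mice, where 4 of 4 mice had this direction, and 0.20 (interval -0.0630 to 0.46, adjusted p = 0.381) in PianpKO mice, where 4 of 5 had it. The 2 singled-out mice were picked after their values were seen, so no test was made.

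**Figure D2:**
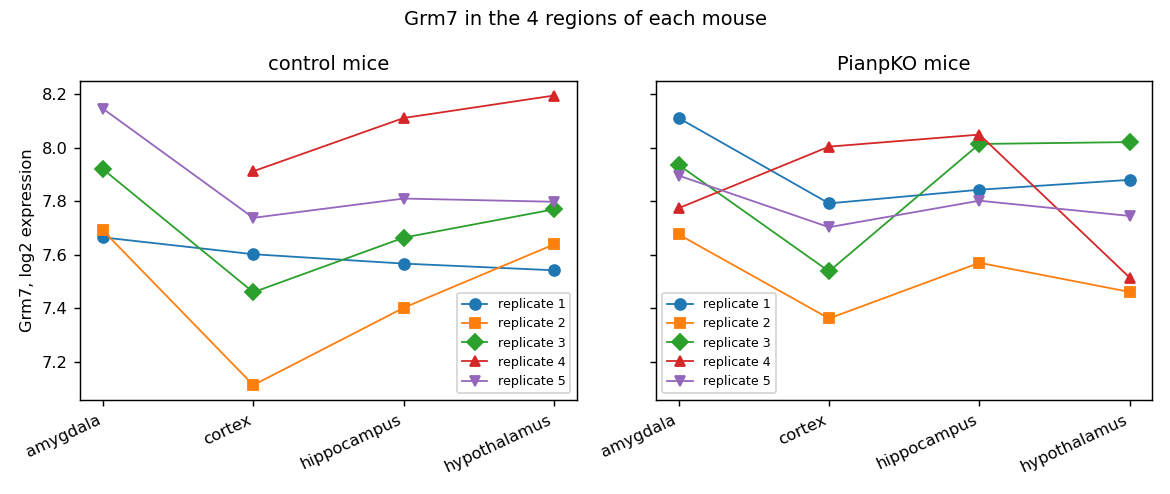
Log2 expression of Grm7 (y axis) in the 4 regions (x axis) of each control (left) and PianpKO (right) mouse, with 1 line per mouse. The line of control replicate 4 runs highest, from 7.91 to 8.20 in its 3 regions, and that of PianpKO replicate 2 runs lowest, from 7.36 to 7.68.

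Counted by pair of regions, amygdala against cortex called 3 of 7 receptors in control and 3 in PianpKO mice, where 12.3% and 14.7% of all probe sets were called. Amygdala against hippocampus called 4 and 3 (background 12.9% and 11.4%), and amygdala against hypothalamus 2 and 3 (9.29% and 7.01%). Cortex against hippocampus called 2 and 2 (16.8% and 14.6%), cortex against hypothalamus 3 and 3 (25.5% and 20.4%), and hippocampus against hypothalamus 3 and 2 (14.9% and 12.5%). Of 42 combinations of receptor and pair, 17 were called in control mice, 16 in PianpKO mice and 14 in both, and all 14 had the same direction. A combination called in only 1 genotype is not thereby shown to differ between them. The test of that difference, an F test of whether the genotype effect varies with region, called 0 of 7 receptors and 0 of 25429 probe sets, and at an unadjusted p under 0.05 it passed 1 of 7 receptors, Grm2 (unadjusted p = 0.0358, adjusted p = 0.952), against 5.15% of all probe sets. Without the hypothalamus samples of control mice 1 and 3 the unadjusted p of Grm2 was 0.0161 and the adjusted p was 1.00.

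**Figure D3:**
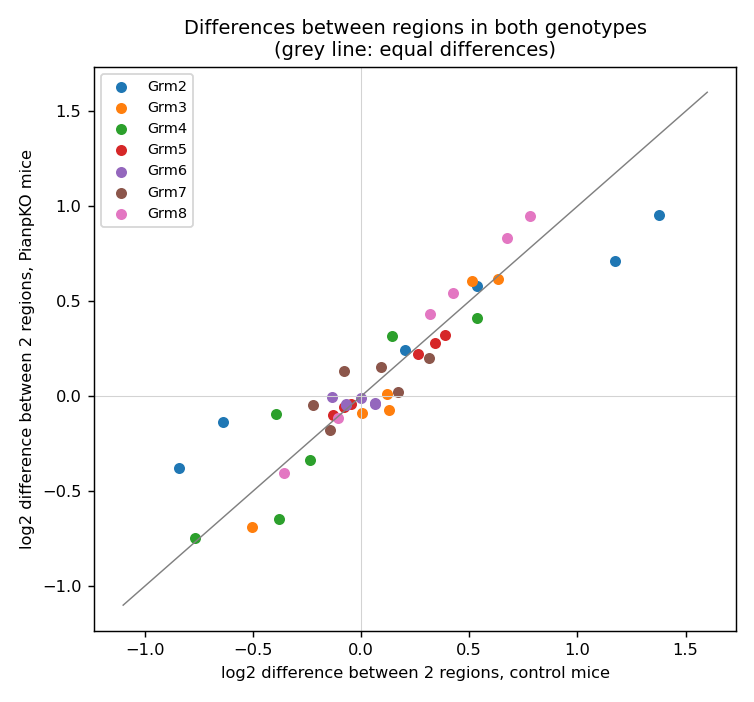
Difference in log2 expression between 2 regions in control mice (x axis) and in PianpKO mice (y axis), with 1 point for each of 42 combinations of receptor and pair of regions, colored by gene, and a grey line where both are equal. The largest control differences are those of Grm2, 1.38 for cortex minus hypothalamus and 1.17 for hippocampus minus hypothalamus, which were 0.96 and 0.71 in PianpKO mice. Without the hypothalamus samples of control mice 1 and 3, not drawn here, these control differences were 1.03 and 0.82.

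Loss of Pianp was not accompanied by a called change of any receptor. Of 7 receptors, 0 were called in amygdala, cortex, hippocampus or hypothalamus (limma, adjusted p under 0.05), where 0.00787%, 0.0157%, 0.00393% and 0.00393% of all probe sets were called. These were 2, 4, 1 and 1 probe sets. Pianp itself was called in each region and was the only call in hippocampus and hypothalamus. With so few calls among all probe sets, 0 of 7 says little about the receptors. Control and PianpKO values overlapped for all 28 combinations of receptor and region, and among all probe sets 2.46%, 2.11%, 0.775% and 0.936% did not overlap. At an unadjusted p under 0.05 only Grm2 in amygdala passed, against 8.07%, 11.2%, 5.08% and 5.55% of all probe sets in the 4 regions. The log2 fold changes of PianpKO minus control ran from -0.18 to 0.41, with 25 of 28 under 0.2 in size. The 95% interval lay within -0.5 and 0.5 for 24 of the 28 and reached 0.83 for Grm2 in hypothalamus, so that a change of up to that size is not excluded there. The mean effect over the 4 regions called 0 of 7 (background 0.319%). At an unadjusted p under 0.05 it also passed 0 of 7, against 14.6% of all probe sets, with values from -0.09 for Grm8 to 0.16 for Grm2.

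**Figure D4:**
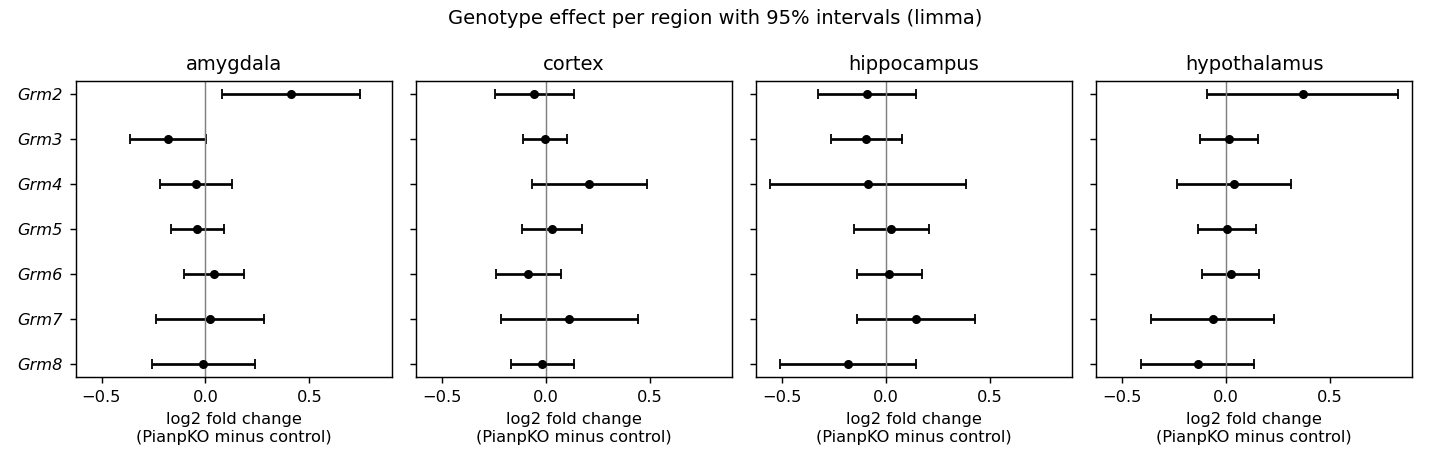
Log2 fold change of PianpKO minus control (x axis) for each receptor (y axis) in each region (panels), with points for the limma estimate and bars for the 95% interval. Grm2 lies at 0.41 in amygdala and 0.37 in hypothalamus, and 25 of the 28 estimates are under 0.2 in size.

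Grm2 showed the 2 highest fold changes. In amygdala it measured 7.27, 8.04, 7.59 and 7.60 in control mice and 7.98, 8.11, 7.71, 8.13 and 8.26 in PianpKO mice, so that control mouse 2 lay within the PianpKO range. The fold change was 0.41 (SE 0.15, 95% interval 0.08 to 0.74, 1.33-fold, limma adjusted p = 0.567), and the two-sided exact permutation test gave p = 0.0556, where the smallest p this design allows is 0.00794. The means of 8 measured striatal projection neuron markers in the same samples were 8.74, 7.995, 8.49 and 8.10 in control mice and 7.69, 7.56, 7.77, 7.43 and 7.51 in PianpKO mice, without overlap. Among control mice the highest Grm2 value came with the lowest marker mean and the lowest value with the highest mean, and among PianpKO mice the lowest value came with the highest mean. With this marker mean as a covariate the Grm2 fold change in amygdala was -0.24 and not called. As the marker means of the genotypes did not overlap, striatal tissue and genotype cannot be told apart for Grm2 in amygdala. In hypothalamus the fold change was 0.37 (SE 0.21, adjusted p = 0.878, exact permutation p = 0.230). The 2 control mice with Grm2 at 6.55 and 6.52 were mice 1 and 3, whose excitatory marker means were low. Without these 2 samples, an alternative chosen after seeing the data, the fold change was -0.00241 (limma adjusted p = 0.9997). As they held the 2 lowest control values, leaving them out had to lower the fold change. The part of cell composition in the Grm2 level of the hypothalamus samples was not tested. The striatal list in hypothalamus ran from 8.49 to 9.36 in control and from 8.13 to 8.59 in PianpKO mice.

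Among the other receptors, Grm8 in hippocampus had the lowest fold change at -0.18 (SE 0.15, adjusted p = 0.979). Grm3 in amygdala was also at -0.18 (SE 0.08, adjusted p = 0.619), and control mouse 3 at 9.54 lay inside the PianpKO range of 9.48 to 9.67. Grm4 in cortex was 0.21 (SE 0.13, adjusted p = 0.589), from 5.58 to 5.99 in control and from 5.64 to 6.37 in PianpKO mice. Grm5 stayed within 0.04 in size in all 4 regions, and its widest interval, in hippocampus, ran from -0.15 to 0.21.

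**Figure D5:**
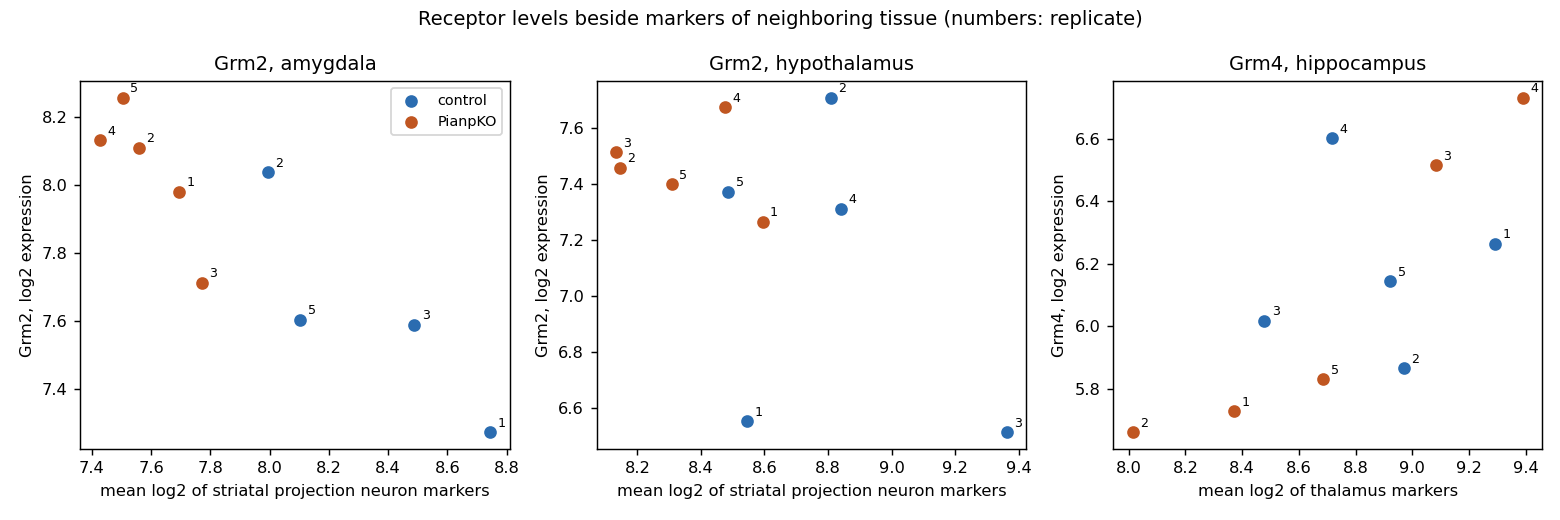
Log2 expression of Grm2 in amygdala and hypothalamus and of Grm4 in hippocampus (y axes) against the mean log2 of striatal projection neuron markers (left and middle) or thalamus markers (right) in the same samples (x axes), blue for control and orange for PianpKO mice, numbered by replicate. In amygdala the control samples lie at 7.995 or above on the marker axis and the PianpKO samples at 7.77 or below, and in hippocampus PianpKO replicates 3 and 4 are highest of their group on both axes, while control replicate 4, with the highest Grm4 value of its group at 6.60, is second lowest on the marker axis at 8.72.

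Signalling partners of the receptors were listed in 5 groups. For genotype 0 of 13 measured Gq-side genes, 0 of 14 Gi/o-side genes, 0 of 9 presynaptic partners of group III receptors, 0 of 6 genes of the retinal mGlu6 complex and 0 of 8 genes of glutamate supply and uptake were called in any region. As only 0.00393% to 0.0157% of all probe sets were called, this says little about the lists. At an unadjusted p under 0.05 the Gq-side list had 2 of 13 genes in amygdala, against 8.07% of all probe sets. Every other list and region had 0 or 1 such gene, against 5.08% to 11.2% of all probe sets. The median log2 fold changes of the lists ran from -0.04 to 0.08, where the lowest median over all probe sets was -0.00342. Between regions members of each list were called. For cortex against hypothalamus, of the Gq-side genes 9 of 13 were higher in cortex in control mice and 8 in PianpKO mice, and 0 were lower, with a median difference of 0.48 and 0.46, where 25.5% and 20.4% of all probe sets were called in either direction. Of the Gi/o-side genes, 4 of 14 were higher and 5 lower in control mice and 5 higher and 3 lower in PianpKO mice, with medians of 0.0373 and -0.0203. The presynaptic partners had 4 of 9 higher and 1 lower in control mice and 4 higher and 2 lower in PianpKO mice, and the genes of glutamate supply and uptake 2 of 8 higher and 3 lower and then 3 higher and 3 lower. Homer1, a scaffold that binds Grm5, was 1.06 higher in cortex than in hypothalamus in control mice (SE 0.14, adjusted p = 1.72e-07) and 1.27 higher in PianpKO mice (adjusted p = 4.92e-09), unlike Grm5 itself, whose cortex minus hypothalamus difference was -0.13 and -0.10 and not called. Homer3, of the same family, was highest in hippocampus (cortex minus hippocampus -0.99 and -1.41, adjusted p = 7.74e-08 and 4.21e-11). Elfn1, a postsynaptic protein that binds group III receptors across the synapse, was highest in hypothalamus at 7.51 ± 0.12 (SD, n = 5) in control and 7.50 ± 0.12 in PianpKO mice, and exceeded cortex there by 0.59 and 0.80 (adjusted p = 3.69e-07 and 8.85e-10), whereas Grm8 was lower in hypothalamus than in cortex. For the same pair Grm4 (cortex minus hypothalamus 0.14 and 0.31) and Grm7 (-0.22 and -0.0443) were not called in either genotype. Of the retinal complex, which serves Grm6 in bipolar cells, at most 1 of 6 genes was called in each direction in any pair of regions. Cortex against hypothalamus in control mice had 1 higher and 1 lower, where 25.5% of all probe sets were called in either direction. Amygdala against cortex in PianpKO mice also had 1 higher and 1 lower, against 14.7%.

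Among 8979 or 8980 other probe sets with a mean log2 above 6, those most like each receptor over the 39 samples were named by Pearson's r as a description. These samples share mice, regions and tissue composition. Grm2 was most like Clcn2, Kcnk4 and Mical2 (r = 0.92, 0.91 and 0.91), and Grm3 like Osbpl1a, Asap1 and Jdp2 (0.93, 0.93 and 0.92). Grm8 was most like Dlg1, Adgrl2 and Nyap2 (0.91, 0.89 and 0.88), Grm4 like Rap1gap, Hcn2 and Pcp4 (0.85, 0.83 and 0.83) and Grm5 like Lypd1, Acvr2a and Dbpht2 (0.84, 0.83 and 0.80). The likeness of Grm7 to Tia1, Cdr1os and Mir5099 (0.81, 0.76 and 0.76) did not come with a called regional pattern of Grm7, and that of Grm6 did not exceed 0.56.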

How the data were processed

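The authors extracted total RNA (RNeasy Mini Kit) from the punches, hybridized it to Affymetrix Mouse Gene 2.0 ST arrays, annotated these with a custom chip definition with Entrez genes and applied quantile normalization. RMA is listed in the submitters' processing notes, with no version. Values were deposited in log2, from 2.75 to 13.91, with array medians of 4.62, so levels compare 1 gene between samples and not different genes. Of 25429 probe sets 24675 carried 1 symbol. The number of arrays limits the precision.

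Groups, replicates and mice were taken from the labels, and all 39 columns were used. In R 4.3.3 with limma 3.58.1 (lmFit, eBayes), PianpKO was compared with control within each region. Regions were compared within a genotype in 1 fit of 8 group means that took the mouse as a random block (consensus correlation 0.106 by duplicateCorrelation, statmod 1.5.0), since the regions came from the same animal: deviations from the group means correlated with a median of 0.123 between regions of 1 mouse and -0.0366 between different mice. In this fit the control amygdala rests on 4 mice. The methods of the study name an ANOVA with false discovery rate correction, which was run as an alternative. Benjamini-Hochberg adjustment covered all probe sets. Within groups, samples correlated at 0.989 to 0.996. Both fits were run on simulated data with planted changes, but recovery of the smallest planted size was not scored. That run therefore says nothing on genotype changes as small as those of the receptors. Alternatives covered centring, normalization, dim probe sets, weights, blocks, covariates and left-out mice. The rule for naming took all 7 receptors, up to 3 genes of each partner list by p and 3 like genes each. By it Plcb1, Gnai3, Gng2, Adcy5, Cacna1b, Pick1, Nyx, Lrit3, Gpr179, Slc17a6, Slc17a7 and Slc17a8 also qualified, and 0 of them were called for genotype. The regional values of partner genes were picked for description after they were seen. The receptors, lists and tests were chosen with earlier results of these data known.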

Additional observations from a re-analysis of the deposited data

Results flagged for a closer look

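Of 56 groups of receptor, region and genotype, 2 held a sample far from the others by Dixon's test, which chance gives in about 1 of 20 groups. Grm3 in PianpKO hypothalamus was lowest in replicate 3, at 9.59 against 9.68 for the nearest sample. Grm8 in PianpKO hypothalamus was lowest in replicate 4, at 6.07 against 6.36.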

How the results depend on the processing

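No alternative, the methods' ANOVA included, gave a called genotype effect for any receptor, and every called difference between regions kept its direction. With all mice kept, no count of receptors called moved by more than 1. That for amygdala against hypothalamus in control mice went from 2 to 1, both with the replicate block as a fixed term and without the hypothalamus samples of control mice 1 and 3, and the latter also took cortex against hypothalamus in control mice from 3 to 2 (Grm8, adjusted p = 0.168). Leaving out 1 mouse gave 0 to 3 calls for amygdala against hypothalamus in control and 0 to 3 in PianpKO mice, and 1 to 3 for hippocampus against hypothalamus in control and 1 to 3 in PianpKO mice. With the mouse as a fixed term, Grm2 for amygdala minus hypothalamus (adjusted p = 0.0760) and Grm8 for hippocampus minus hypothalamus (adjusted p = 0.0758) lost their calls in control mice, as did Grm5 for amygdala minus hypothalamus in PianpKO mice (0.0924), and the Grm8 call was also lost without a block (0.0538).

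Genotype effects that turned sign were uncalled before and after, and the cause was not tested. With the striatal marker mean as a covariate, whose values did not overlap between the genotypes in amygdala, the amygdala gave -0.24 for Grm2, 0.0802 for Grm4, -0.0159 for Grm7 and 0.13 for Grm8, and the hippocampus 0.0853 for Grm4, -0.0212 for Grm5 and -0.0443 for Grm6. Array weights gave -0.0295 for Grm7 in amygdala, 0.000250 for Grm3 in cortex, -0.00842 for Grm4 and -0.0272 for Grm5 in hypothalamus. The fit of 8 groups gave -0.00220 for Grm7 in amygdala, and the mean effect of Grm6 was -0.00112 without the replicate block. Without the hypothalamus samples of control mice 1 and 3, Grm2 gave -0.00241 and Grm3 -0.0467 in hypothalamus.

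With 1 mouse left out, values crossed 0 in amygdala (-0.0789 to 0.00275 for Grm4, -0.0406 to 0.12 for Grm7, -0.10 to 0.0802 for Grm8), in cortex (-0.0873 to 0.0119 for Grm2, -0.0169 to 0.00859 for Grm3, -0.00879 to 0.0616 for Grm5, -0.0623 to 0.0186 for Grm8), in hippocampus (-0.24 to 0.0232 for Grm4, -0.0203 to 0.0773 for Grm5, -0.0153 to 0.0632 for Grm6), in hypothalamus (-0.0134 to 0.0594 for Grm3, -0.0351 to 0.11 for Grm4, -0.0282 to 0.0362 for Grm5, -0.0115 to 0.0464 for Grm6, -0.14 to 0.0372 for Grm7), in the mean over regions (-0.0402 to 0.0712 for Grm4, -0.00257 to 0.0161 for Grm5, -0.0163 to 0.0253 for Grm6, -0.0218 to 0.13 for Grm7).

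Same replicate numbers in control and PianpKO mice name different animals. Within a region their deviations correlated from -0.09 to 0.24 (median 0.0656), against -0.15 to 0.39 (median 0.123) between regions of 1 mouse. Whether equal numbers share a processing step was not tested. The replicate block across genotypes changed no call (Grm2 in amygdala 0.39, limma adjusted p = 0.617). The filter on dim probe sets gave no value for Grm6. The number of mice limits what can be seen of small changes.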
